A study of Homo sapiens with 5 samples.

Results

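Mucins are large glycoproteins of epithelial surfaces, and 10 of them were described here across 5 human pancreatic cell lines. The genes were MUC1, MUC4, MUC13, MUC16, MUC17 and MUC20, which are anchored in the cell membrane, and MUC2, MUC5AC, MUC5B and MUC6, which are secreted and form gels. They were chosen by gene name, with earlier results of these data known. Every array probe set annotated to 1 of these symbols alone was taken, 27 of the 41091 probe sets with 1 symbol, so that all 10 of the 19775 genes had at least 1. The arrays were one-colour Affymetrix expression arrays, 1 per line, with no replicate culture and no treatment. PANC1, HPAF1, SU86.86 and L3.6 are carcinoma lines. HPDE derives, by general knowledge, from non-malignant human duct epithelium that was immortalised in culture, whereas its source label describes it like the other 4, as a cancer line. Each group is thus 1 cultured line measured once, without the stroma or mucus layer of a tissue.

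Membrane mucins carry a long, heavily O-glycosylated extracellular stretch and a short tail inside the cell, and several of them sit on the apical side of duct cells. Gel-forming mucins are packed into granules, cross-linked through cysteine-rich ends and released as mucus. In the pancreas MUC1 is known from normal ducts, while MUC4, MUC5AC and MUC16 are known as genes that appear in precursor lesions or carcinoma.

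A value is the deposited linear intensity of a probe set. Differences are on the scale log2(intensity + 71.1), on which changes of dim probe sets are understated. A probe set is called dim in a line where it read under the level filter of 140 intensity units, the median of all probe set values. As a second mark of background, 107 probe sets of olfactory receptor genes, which epithelial cells are not known to use, had a 95th percentile between 191 in HPDE and 255 in L3.6. Their median was also highest in L3.6, at 96.5, against 77.3 to 81.9 in the other lines. Array medians lay between 137 and 143 units, and 9 spike-in control probe sets had a standard deviation between arrays of 0.10 (median) and 0.14 (highest) on the log2 scale. The number of arrays limits the precision of every value.

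The 5 lines were first checked for their labelled tissue. Epithelial markers were uneven between lines. KRT18, a keratin of simple epithelia, read 9521 to 31646 units, and KRT7, a keratin of duct cells, read 111 in PANC1, under the level filter, and 4486 to 12541 in the others. The splicing factor ESRP1 likewise read 46.5 in PANC1 and 1672 to 4805 elsewhere. Of 10 epithelial markers, 9 were at least 2-fold above the average of the remaining lines in HPAF1 and 8 were at least 2-fold below it in PANC1, with 0 past limma in both. Of the 14894 genes that reached the level filter in at least 1 line, 6.96% were at least 2-fold above that average in HPAF1. In PANC1 5.54% were at least 2-fold below it. Shares of genes given below are of these 14894 unless another number is stated. PTPRC, which marks leukocytes, stayed at 52.7 to 67.9 units, although 2 genes on the leukocyte list were high in HPAF1 (LYZ, lysozyme, 12102 units against 35.4 to 44.0, and CD14, 350 against 31.1 to 139). The duct chloride channel CFTR was also low, between 99.4 and 143 units. On the duct list KRT19 read 847 units in PANC1 and 6461 to 20372 elsewhere. SOX9 read 171 to 2911, while AQP1 and ONECUT1 were dim in all lines. Some genes listed for other cell types read over the level filter. Among them COL1A1 (987 to 1685), PECAM1 (426 to 668) and PAX6 (316 to 572) did so in all lines. COL1A2 did so in L3.6 alone (889), and PRSS2 reached 853 in SU86.86.

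HPAF1 had the highest signal of nearly all membrane mucin probe sets. It was the highest line for 17 of the 18, counting dim ones, where 23.1% of all one-symbol probe sets had their highest value in HPAF1. The 18 belong to 6 genes, and probe sets of 1 gene are not independent. Some leads were small, such as 0.06 on MUC4 1561785_at, under the spike-in standard deviation of 0.10. With 1 probe set kept per gene, the one with the highest mean, MUC1, MUC13, MUC17 and MUC20 stood at least 2-fold above every other line in HPAF1. That is 4 of the 10 members, against 2.03% of all 19775 genes. MUC17 reached the level filter in HPAF1 alone. With probe sets that can match several transcripts left out, MUC1 and MUC13 have none and the 4 became 2. Of the 4 gel-forming genes 0 stood at least 2-fold above every other line in HPAF1. The only member at least 2-fold above every other line elsewhere was MUC2 in L3.6, where 0.399% of the 19775 genes did so. In PANC1, SU86.86 and HPDE 0 members did, against 1.09%, 0.936% and 1.52% of the 19775 genes. Of the 9 members that reached the filter, 0 lay at least 2-fold below every other line in PANC1, HPAF1, SU86.86, L3.6 or HPDE. Of the 14894 genes that reached it, 1.6%, 1.38%, 0.235%, 0.712% and 0.967% did so in these lines. MUC1 and MUC20, 2 of the 10 members, spanned at least 4-fold over the lines, against 10.2% of the 19775 genes. So did 6 of the 27 probe sets, all of membrane mucins, against 8.19% of the 41091 probe sets with 1 symbol. Without HPAF1 0 members spanned 4-fold. The plot of probe set intensities shows the membrane mucins spread widely and the gel-forming ones in a narrower range.

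**Figure D1:**
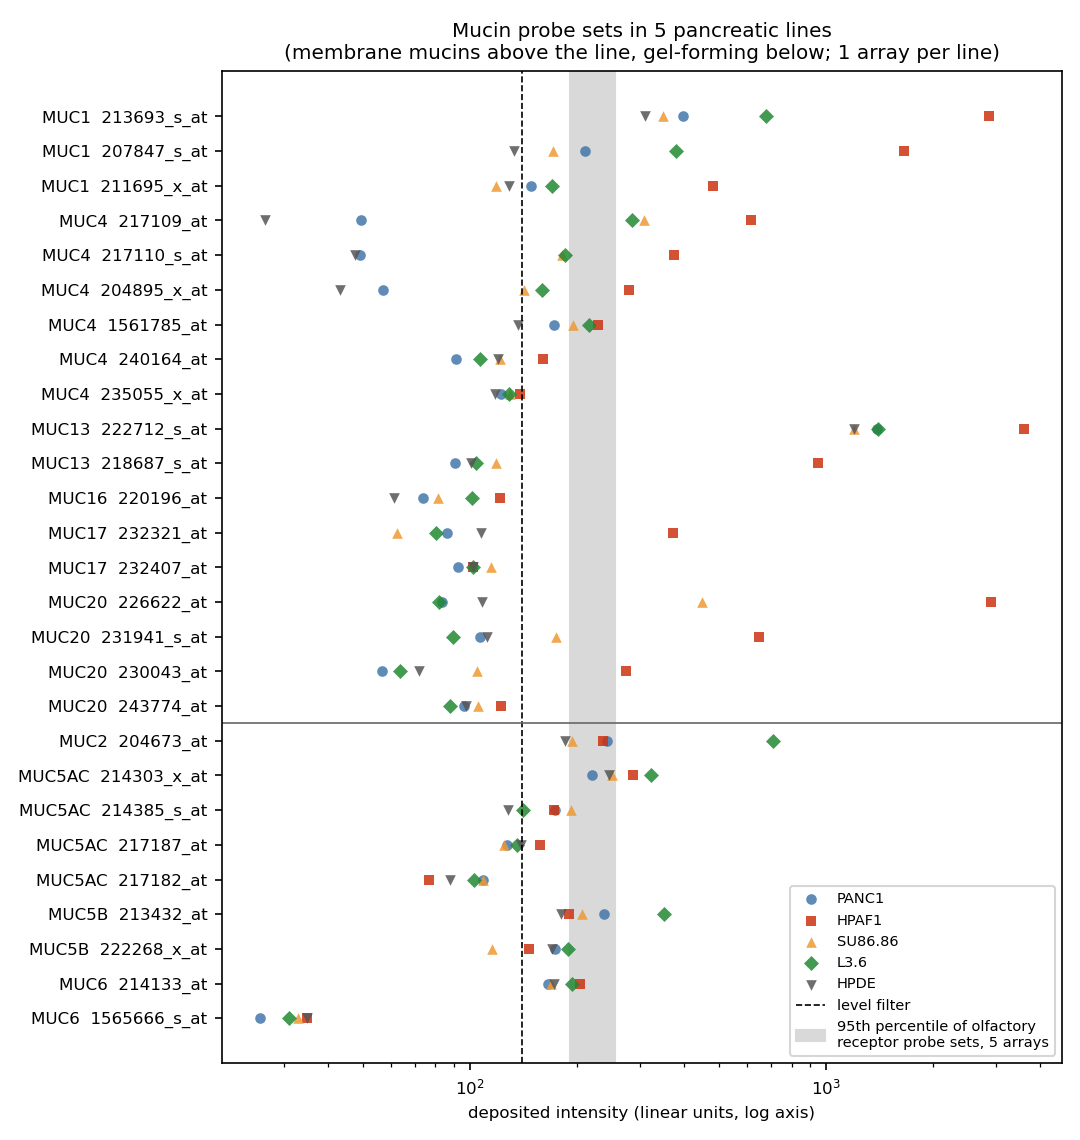
Deposited intensity (log axis) of all 27 mucin probe sets, 1 point per line and array, with the level filter of 140 units as a dashed line and the range of the olfactory receptor 95th percentile over the 5 arrays shaded. HPAF1 (squares) lies to the right for 17 of 18 membrane mucin probe sets, and MUC2 in L3.6 (diamond, 708 units) stands alone among the gel-forming ones.

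The sequence upstream of the start site is given for the 4 membrane mucins that were highest in HPAF1, read above the level filter there and matched the RefSeq promoter table (GRCh38.p14), as sequence context for these genes. Capitals mark matches, on either strand, to 7 short motifs. They were TATAAA for the TATA box, GGGCGG for the GC box, TGATAA for GATA factors, GTTAAT for a part of the HNF1 site, TGTTTAC for FOXA factors, TTCNNNGAA for STAT factors and CACCTG for the E-box known to be bound by ZEB and SNAI repressors. Each is the 250 bases before the start, 5′ to 3′ on the gene's strand. MUC1 is at chr1:155192916-155193165 on the minus strand, MUC4 at chr3:195811930-195812179 on the minus strand, MUC13 at chr3:124934752-124935001 on the minus strand and MUC17 at chr7:101019831-101020080 on the plus strand.
MUC1 promoter: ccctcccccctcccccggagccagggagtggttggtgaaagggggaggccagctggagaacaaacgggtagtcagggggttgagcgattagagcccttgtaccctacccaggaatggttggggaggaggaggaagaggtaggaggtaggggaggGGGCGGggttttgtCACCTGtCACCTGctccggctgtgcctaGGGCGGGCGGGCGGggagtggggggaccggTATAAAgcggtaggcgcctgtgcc
MUC4 promoter: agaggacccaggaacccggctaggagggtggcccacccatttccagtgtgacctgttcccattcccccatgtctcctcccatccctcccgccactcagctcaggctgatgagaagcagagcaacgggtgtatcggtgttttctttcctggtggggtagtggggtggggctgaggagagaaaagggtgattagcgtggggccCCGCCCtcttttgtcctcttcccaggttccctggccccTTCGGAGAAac
MUC13 promoter: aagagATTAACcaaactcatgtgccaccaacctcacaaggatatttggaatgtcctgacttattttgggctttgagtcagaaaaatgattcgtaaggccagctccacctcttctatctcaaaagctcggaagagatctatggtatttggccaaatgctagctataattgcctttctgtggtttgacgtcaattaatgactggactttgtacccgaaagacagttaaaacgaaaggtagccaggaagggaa
MUC17 promoter: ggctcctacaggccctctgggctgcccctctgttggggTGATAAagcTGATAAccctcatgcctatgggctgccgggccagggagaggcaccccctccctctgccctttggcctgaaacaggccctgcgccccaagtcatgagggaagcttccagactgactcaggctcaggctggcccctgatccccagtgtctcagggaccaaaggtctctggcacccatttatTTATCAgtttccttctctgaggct

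No motif was held by all 4 stretches, and the GC box was held by MUC1 and MUC4. MUC1 had a TATA box at bases -24 to -19 from the start, a motif found in 10.7% of 35116 promoters of that length, 4 GC boxes of which 3 overlap each other (42.6% of promoters hold at least 1), and 2 copies of CACCTG at -82 to -77 and -75 to -70 (17.5%). MUC4 had 1 GC box and a STAT match at -11 to -3 (6.57%). MUC13 had only the HNF1 letters at -245 to -240 (6.23%), and MUC17 had 3 GATA matches (6.66%), the nearest at -24 to -19. FOXA letters, found in 2.98% of promoters, were in none of the 4. A match describes letters, not a bound site.

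MUC1, whose tail inside the cell can be phosphorylated, had 3 probe sets with a single order at the top. On 213693_s_at it read 2872 units in HPAF1, 679.7 in L3.6, 396 in PANC1, 349 in SU86.86 and 309 in HPDE. HPAF1 was thus 4.23 times the next line, and the other lines lay within a narrower band in which HPDE, SU86.86 and PANC1 were close together. On 207847_s_at the values were 1651, 379, 211, 171 and 133 in the same order of lines. On 211695_x_at, a probe set type that may cross-hybridise with other transcripts, HPAF1 read 482 and the others 119 to 170. The HPAF1 difference from the mean of the other 4 lines was 2.60 on 213693_s_at (SE 0.42, limma adjusted p = 0.150) and did not pass the threshold of 0.05.

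MUC13, a small membrane mucin of gastrointestinal epithelium, was highest in HPAF1 on both of its probe sets. On 218687_s_at HPAF1 read 951 units, SU86.86 119, L3.6 104, HPDE 101 and PANC1 90.6. HPAF1 stood 8.01 times above the next line, and the other 4 lines all lay under the level filter. On 222712_s_at the same gene read 3592 in HPAF1, 1401 in L3.6, 1388 in PANC1, 1197 in HPDE and 1196 in SU86.86, so that the other lines were not dim on that probe set. The probe sets share the direction and differ in whether the other lines carry signal. With each probe set tested on its own, 218687_s_at was the only mucin probe set to pass, higher in HPAF1 by 2.55 (SE 0.19, limma adjusted p = 0.0388), where 0.202% of 27659 probe sets passed in that direction. It reached the level filter in HPAF1 alone, and its SE rests on the 4 dim readings. On 222712_s_at, kept for the gene, the difference was 1.43 (SE 0.20, limma adjusted p = 0.116) and did not pass.

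MUC20, a membrane mucin known to bind the hepatocyte growth factor receptor MET, varied most of all members. On 226622_at it read 2896 units in HPAF1, 449 in SU86.86, 108 in HPDE, 83.4 in PANC1 and 81.9 in L3.6. HPAF1 and SU86.86 were the only lines over the level filter, and the remaining 3 could not be ordered, being dim. HPAF1 was also highest on 231941_s_at, with 647 units against 174 in SU86.86, which is under its olfactory receptor 95th percentile of 219, and 89.4 to 111 elsewhere. On 230043_at HPAF1 read 274 and the other 4 lines were dim (56.6 to 104), while 243774_at stayed between 87.9 and 122 in all lines. The HPAF1 difference on 226622_at was 3.78 (SE 0.78, limma adjusted p = 0.215). SU86.86 is among the lines averaged there, and without it the difference was 4.20. The 3 lines then left in the average were all under the level filter.

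MUC17, a membrane mucin of the intestinal brush border, read above the level filter on 1 probe set in 1 line. On 232321_at it read 371 units in HPAF1, 107 in HPDE, 86.2 in PANC1, 80.2 in L3.6 and 62.5 in SU86.86. The difference of HPAF1 was 1.52 (SE 0.23, limma adjusted p = 0.126). That SE rests on the readings of the other lines, all under the level filter. The other probe set, 232407_at, showed none of this, with 92.4 to 114 units and its highest value in SU86.86.

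MUC4, a long membrane mucin that can engage the receptor ERBB2, divided the lines differently. On 217109_at HPAF1 read 617 units, SU86.86 307, L3.6 286, PANC1 49.5 and HPDE 26.5. The 3 upper lines were over the level filter and the 2 lower ones far under it, and SU86.86 and L3.6 were close to each other. A further pair of probe sets gave the same division by the level filter. They were 217110_s_at, with 375, 181 and 185 units in HPAF1, SU86.86 and L3.6 against 47.4 to 49.2 in HPDE and PANC1, and 204895_x_at, with 279, 142 and 159 against 43.3 to 57.2. On both, SU86.86 and L3.6 read under their olfactory receptor 95th percentiles of 219 and 255, and only HPAF1 read over its own. The other 3 varied less. The probe set with the highest mean, 1561785_at, ranged only from 137 to 229 units, 240164_at from 91.5 to 160, and 235055_x_at from 118 to 138. MUC4 therefore counts as varying little when the gene is represented by 1561785_at, with a range of 0.53 on the log2 scale, and as varying by 2.82 on 217109_at. Against the mean of the other lines HPAF1 was higher by 1.78 on 217109_at (SE 0.92, limma adjusted p = 0.659).

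MUC16, which carries the CA125 antigen, was dim in every line on its only probe set. It read 121 units in HPAF1, 101 in L3.6, 81.3 in SU86.86, 73.7 in PANC1 and 61.3 in HPDE, all under the level filter, and it was left out of the limma fit. HPAF1 was highest here too, but no order can be read at this level.

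MUC2, the gel-forming mucin of intestinal goblet cells, was the one secreted mucin with a clear line. On 204673_at L3.6 read 708 units, PANC1 243, HPAF1 237, SU86.86 194 and HPDE 185. L3.6 was 2.91 times the next line, and the other 4 lay around the 95th percentile of the olfactory receptor probe sets. The difference of L3.6 was 1.45 (SE 0.22, unadjusted p = 0.00171, limma adjusted p = 0.687). In L3.6 0 genes passed limma in either direction, while 3.37% had an unadjusted p under 0.05. L3.6 also had the highest olfactory receptor background, with a 95th percentile of 255 units against 238 in the next line, HPAF1, and the part of that in the MUC2 and MUC5B values was not tested.

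The MUC2 promoter, printed because L3.6 and not HPAF1 was highest, had none of the 7 motifs in its 250 bases, at chr11:1074624-1074873 on the plus strand, which therefore stand in lower case throughout.
MUC2 promoter: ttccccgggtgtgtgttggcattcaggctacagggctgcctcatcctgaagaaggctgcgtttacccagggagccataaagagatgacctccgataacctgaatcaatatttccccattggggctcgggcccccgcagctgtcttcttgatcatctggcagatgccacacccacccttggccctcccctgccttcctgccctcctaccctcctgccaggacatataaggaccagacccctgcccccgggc

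The other gel-forming genes varied less between lines. MUC5B, a gel former of airway and gland mucus, read 351 units in L3.6 on 213432_at, 238 in PANC1, 206 in SU86.86, 190 in HPAF1 and 180 in HPDE. L3.6 was again highest, by 0.62 over the mean of the others (SE 0.21, limma adjusted p = 1.000), and 222268_x_at ranged from 115 to 188. MUC5AC, the gel former of gastric surface cells, read 220 to 323 units on 214303_x_at with its highest value in L3.6 and all 5 lines above their own olfactory receptor 95th percentile, 128 to 192 on 214385_s_at, 125 to 158 on 217187_at and 76.5 to 109 on 217182_at. Its probe sets named different lines as highest, and 214303_x_at is of the type that may cross-hybridise. MUC6, made by gastric and duodenal glands, ranged from 166 to 204 on 214133_at and from 25.7 to 35.0 on 1565666_s_at. In the RefSeq gene order, MUC2, MUC5AC and MUC5B are consecutive protein-coding genes on chromosome 11, with MUC6 separated from MUC2 by 1 gene. On the kept probe sets, MUC2 ranged over 1.60 on the log2 scale and MUC5B over 0.75, with MUC5AC and MUC6 below that.

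MUC20 and MUC4 are also adjacent, on chromosome 3. On MUC20 226622_at and MUC4 217109_at HPAF1 was highest and SU86.86 next, but the 2 genes differed in L3.6. L3.6 was dim for MUC20 (81.9 units) and close to SU86.86 for MUC4 (286). MUC17 lies beside MUC12 on chromosome 7, and MUC12 ranged only from 118 to 145 units.

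**Figure D2:**
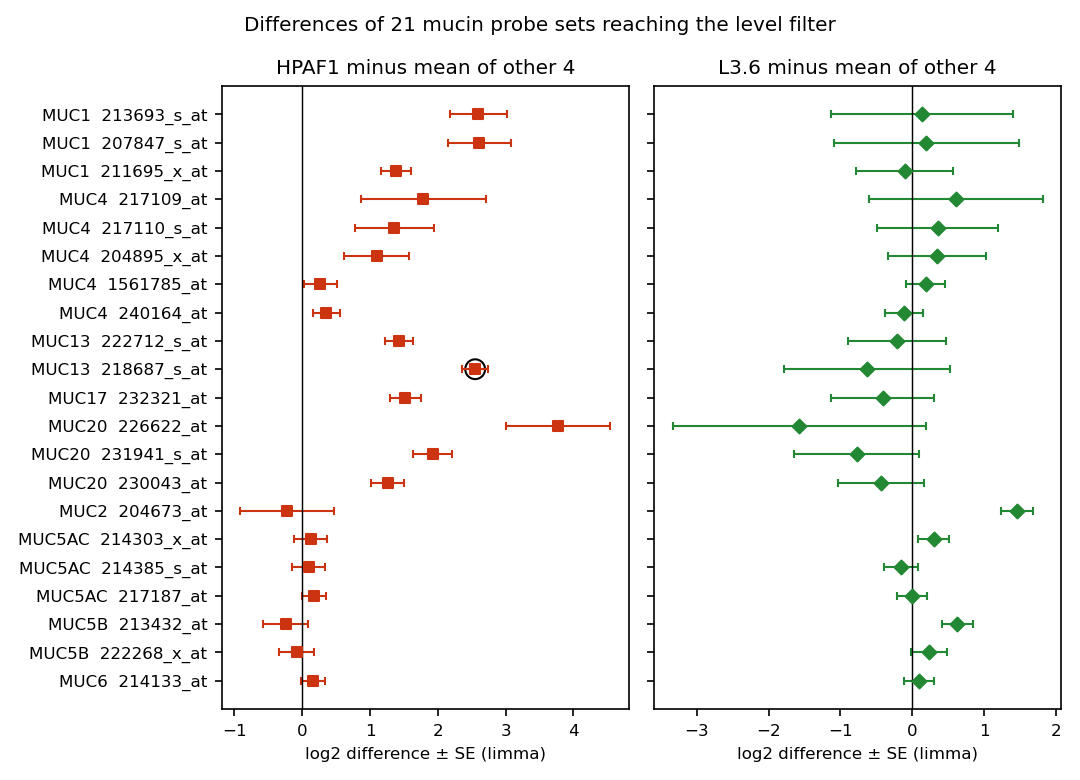
Log2 difference of HPAF1 (left) and L3.6 (right) from the mean of the other 4 lines for the 21 mucin probe sets that reached the level filter in at least 1 line, with bars of 1 limma SE, which rest on the spread between lines. The ring marks MUC13 218687_s_at in HPAF1 (2.55), the only one past the adjusted threshold, and MUC2 in L3.6 stands at 1.45.

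With 1 probe set per gene, 0 of the 9 members fitted passed limma in any of the 5 lines. Of all 14894 genes fitted, 0.215% passed as higher and 0.0269% as lower in HPAF1, 0.0201% and 0.00671% in PANC1, 0.0269% and 0.0% in HPDE, and 0.0% either way in SU86.86 and L3.6. In HPAF1 4 members had an unadjusted p under 0.05 (MUC1, MUC13, MUC17 and MUC20), and 10.1% of all genes fitted did. In L3.6 2 members had an unadjusted p under 0.05, MUC2 and MUC5B, against 3.37% of genes, and in PANC1, SU86.86 and HPDE 0 did, against 5.56%, 3.74% and 8.23% of genes. These p-values compare 1 line with the spread of the other 4 and say nothing of the spread between cultures. For MUC17 in HPAF1 the other 4 lines were all under the level filter. The high membrane mucins of HPAF1 go with its high epithelial markers, of which 9 of 10 were at least 2-fold higher, against 6.96% of genes. Their summed level was 117900 units against 21340 to 88110 in the other lines. The mucins also go with its LYZ and CD14, while PTPRC was at background, and the part of these in the mucin values was not tested. The other lines did not all keep the order of the summed level. SU86.86 (88110) was second to HPAF1 for MUC20 226622_at. For MUC1 213693_s_at and MUC13 222712_s_at SU86.86 read below PANC1 (21340), at 349 and 1196 units against 396 and 1388.

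Against HPDE alone, with no replicate on either side and HPDE shared by the 4 differences, most kept mucin probe sets of the carcinoma lines lay within 2-fold of HPDE, and those outside were all higher. MUC1, MUC13, MUC17 and MUC20 were at least 2-fold higher in HPAF1, by 2.95, 1.53, 1.31 and 4.05 on the log2 scale, where 7.77% of genes were. For MUC17 and MUC20 HPDE read under the level filter, at 107 and 108 units. MUC17 reached that filter in HPAF1 alone. In SU86.86 the only member at least 2-fold higher was MUC20 (1.54), where 8.44% of genes were. In L3.6 it was MUC2 (1.60), where 6.55% were, and MUC1 fell just short with 0.98. On the MUC1 probe sets not kept, L3.6 exceeded HPDE by 1.14 on 207847_s_at and by 0.28 on 211695_x_at. In PANC1 0 members were at least 2-fold from HPDE, where 8.47% of genes were higher and 9.26% lower. On MUC4 217109_at, which was not the probe set kept, HPAF1, SU86.86 and L3.6 exceeded HPDE by 2.82, 1.95 and 1.87 and PANC1 by 0.30. At least 2-fold below HPDE lay 0 members in HPAF1, SU86.86 and L3.6 too, against 9.27%, 7.72% and 8.59% of genes.

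**Figure D3:**
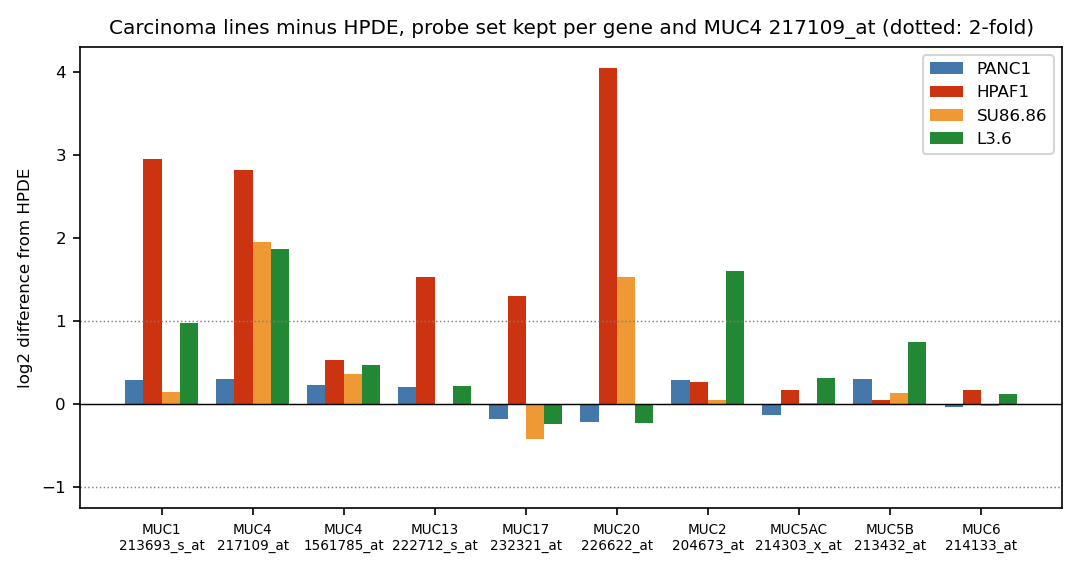
Log2 difference of each carcinoma line from HPDE for the probe set kept per gene and for MUC4 217109_at, with bars starting at 0 and 1 array on each side. MUC20 in HPAF1 is the tallest bar (4.05), SU86.86 passes the dotted 2-fold line for MUC20 and for MUC4 217109_at, and PANC1 passes it for none.

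Of 13 other mucin genes, 10 had a probe set and 4 reached the level filter. CD164, a small sialomucin of many cell types, read 5604 units in HPAF1 and 1955 in L3.6, and was the only one at least 2-fold from the mean of the others, lower in L3.6 (difference -1.19), where 4.72% of genes were at least 2-fold lower. The MUC3A probe set, of the type that may cross-hybridise, ranged from 402 to 503. Neither passed limma in any line.

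Enzymes that build mucin O-glycans differed between lines in both directions. Of 25 fitted, 10 were at least 2-fold above the average of the remaining lines in HPAF1 and 2 below it. Of all genes fitted 6.96% were above and 6.3% below, and 2 of the 25 passed limma in HPAF1. The median HPAF1 difference was 0.16 over the 25 and -0.01 over all genes fitted. In SU86.86 7 were at least 2-fold higher, where 5.29% of genes were, with a median of 0.20, and in PANC1 4 were, where 5.38% were. GCNT3, which makes the branched core structures of secreted mucins, read 5110 units in HPAF1 and 119 to 146 elsewhere, higher by 4.72 (SE 0.19, limma adjusted p = 0.00940). CHST4, a sulfotransferase, passed as well (difference 3.20, SE 0.20, limma adjusted p = 0.0276) and is named after its values were seen. GALNT5 and B3GALT5 read 2528 and 1486 units in HPAF1 without passing. GALNT3, which starts O-glycan chains, split the lines otherwise, with 46.9 units in PANC1 and 1090 to 3743 elsewhere. In PANC1 6 of the 25 were at least 2-fold lower and in HPDE 7, where 5.54% and 5.57% of genes were.

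Partners of mucin secretion and of the membrane mucins gave mixed patterns. Of 15 secretory partners, 5 were at least 2-fold higher in HPAF1 and 4 in SU86.86, against 6.96% and 5.29% of genes, and 5 were lower in HPDE, against 5.57%. The annexin ANXA10 passed limma in HPAF1, where 0.215% of genes passed as higher, with 7586 units against 97.5 to 189 (adjusted p = 0.0238). Their median HPAF1 difference was 0.31. For AGR2, a disulfide isomerase known for folding gel-forming mucins, PANC1 read 11387 units, HPAF1 11658, SU86.86 6901, L3.6 714 and HPDE 114, so that L3.6, the line with the highest MUC2, was among the 2 lowest for AGR2. The trefoil peptide TFF2 was highest in SU86.86 (1533 units). SYTL2, a granule transport protein, was highest in PANC1 (5362). Of 16 membrane mucin partners, 5 were at least 2-fold higher in HPAF1 and 1 lower, against 6.96% and 6.3% of genes, with a median of 0.43. MSLN, mesothelin, the binding partner of MUC16, read 1896 units in HPAF1 and 164 to 195 in the others (difference 2.96, SE 0.18, limma adjusted p = 0.0238), whereas MUC16 itself was dim in all lines. The galectin LGALS3 (20318 units) and the receptor ERBB3 (3788) were also highest in HPAF1 without passing, and moesin (MSN), which links membrane proteins to actin, was lowest there, at 119 units against 995 to 4079. For GCNT3, CHST4, ANXA10 and MSLN the other 4 lines lay close to or under the background marks, on which the SE rests.

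Transcription factors known to act on mucin genes or in mucus-secreting epithelium ranked the lines in several ways. Of 16 fitted, 6 were at least 2-fold higher in HPAF1 and 5 lower in PANC1, against 6.96% and 5.54% of genes, and the median HPAF1 difference was 0.57. Of the 16, 0 passed limma in any line. EHF, an epithelial ETS factor, read 14.6 units in PANC1 and 857 to 4599 elsewhere, with SU86.86 above HPAF1. KLF5 was highest in HPDE (6806 units) and FOXA1 in L3.6 (2128). ELF3, another epithelial ETS factor, was highest in HPAF1 (3626), then L3.6 (1716) and HPDE (1029).

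**Figure D4:**
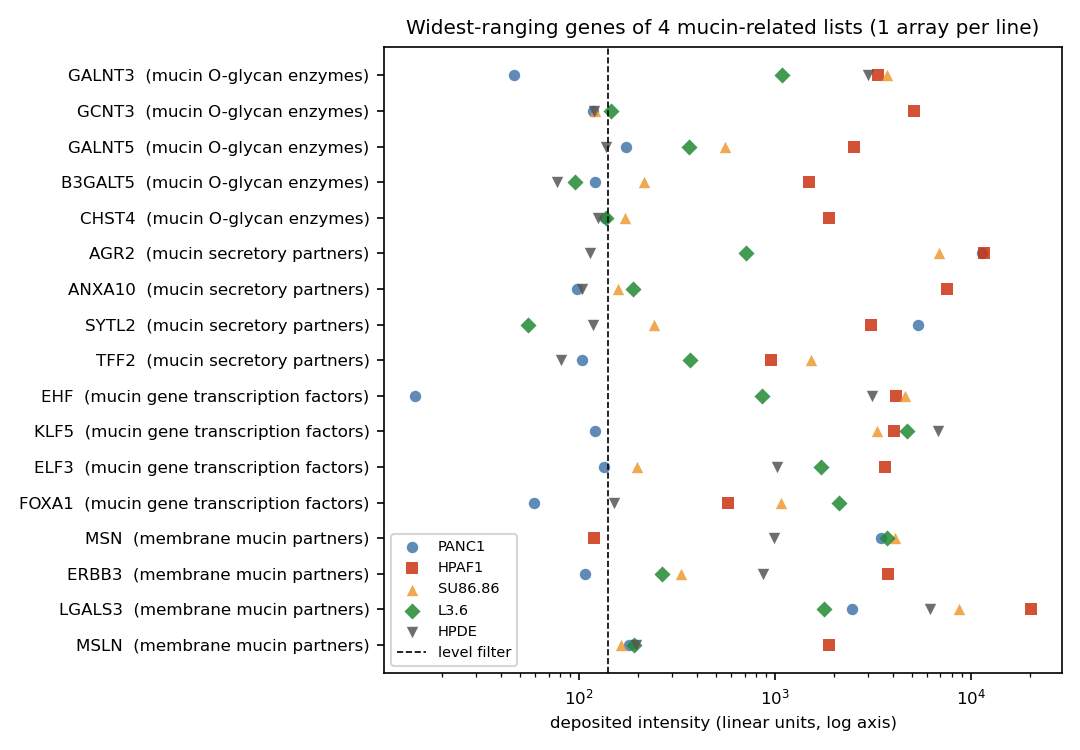
Deposited intensity (log axis) of the widest-ranging genes in 4 mucin-related lists, and CHST4, 1 point per line and array, with the level filter dashed. HPAF1 (squares) stands apart for GCNT3, ANXA10 and MSLN, while AGR2 is high in PANC1 and HPAF1 alike and EHF is low in PANC1 alone.

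The genes nearest in pattern were found by the root mean square difference over the 5 lines between levels centred on each gene's mean. For MUC1 the nearest were SIPA1L2 (0.13), the ubiquitin ligase TRIM31 (0.20) and the decarboxylase DDC (0.20), and 4 genes in all came within 0.25. For MUC20 they were the membrane-bound transcription factor MYRF (0.20), TMEM45B (0.23) and the cytokine TNFSF15 (0.26), and 2 came within 0.25. MYRF stood at a log2 level of 11.53 in HPAF1 and 9.42 in SU86.86, as MUC20 stood at 11.53 and 9.02. The search covered 14894 genes and rests on 5 arrays.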

How the data were processed

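Total RNA of 5 cell lines was hybridised to 1 one-colour array each. Deposited values are intensities on a linear scale for 54675 probe sets. How the authors summarised or scaled them is not given in any source used here. Array medians were nearly equal, so no further normalization was applied. Of the probe sets, 62 controls were left out and 41091 had 1 symbol in the platform annotation, of which 41037 were updated through RefSeq gene IDs (GRCh38.p14). Values were transformed as log2(value + 71.1), the 25th percentile of positive values being added. Each gene was represented by its brightest probe set on average. Of 19775 genes, 14894 had at least 1 line at or above the median of all probe set values and were fitted with limma 3.58.1 in R 4.3.3, each line against the other 4, two-sided, with 3 residual degrees of freedom and Benjamini-Hochberg adjustment. The single array of a line is taken to vary like those of the other lines. The fit was tested on simulated data with a capped spread between lines. That test does not cover genes that vary widely between lines. Named genes were all members, MSLN and AGR2, and the 3 nearest patterns for members spanning at least 4-fold. Others were drawn from the 4 widest-ranging genes of each mucin-related list and the 2 widest-ranging of each marker list. KRT18, PTPRC, CFTR, SOX9, AQP1, ONECUT1 and CHST4 lie outside that rule and were named after their values were seen. Members and lists were chosen with earlier results of these data known. Alternatives were no added constant, quantile normalization, other level filters, other probe set choices, a trended prior and leaving out each line.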

Additional observations from a re-analysis of the deposited data

How the results depend on the processing

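The choice of probe set moved several HPAF1 differences by over 1.5 times. With averaged probe sets MUC20 went from 3.78 to 1.79, MUC17 from 1.52 to 0.76 and MUC4 from 0.27 to 0.83, and 3 members instead of 4 stood at least 2-fold above every other line. With each probe set tested on its own, the probe set with the lowest p gave 1.93 for MUC20, 1.39 for MUC1, 2.55 for MUC13 and 1.36 for MUC4. Members past limma in HPAF1, and in all lines together, went from 0 to 1 when a gene's probe sets were averaged and when each probe set was tested on its own, MUC13 each time (adjusted p = 0.0371 and 0.0388). Members spanning at least 4-fold over the lines numbered 2 in the report, 4 with each probe set tested on its own, 1 without probe sets matching several transcripts and, leaving out 1 line at a time, 0 (without HPAF1) to 2. Without probe sets matching several transcripts, 2 members instead of 4 stood at least 2-fold above every other line in HPAF1, 3 instead of 5 over all lines, and 2 instead of 4 were at least 2-fold from HPDE in HPAF1, because MUC1 and MUC13 have no other probe sets here. Members at least 2-fold from HPDE in L3.6 numbered 2 instead of 1 with no constant added and with quantile normalization, and 3 with each probe set tested on its own. In SU86.86 they numbered 0 with averaged probe sets and 2 with each probe set tested on its own, which gave 10 instead of 6 over the 4 lines. SU86.86 had 0 to 1 members at least 2-fold above every other line when 1 line was left out, the 1 (MUC20) without HPAF1. MUC5AC in L3.6 minus the other lines turned to -0.0078 without probe sets matching several transcripts. No paired analysis was possible because each line has 1 array. Signal near background limits MUC5AC, MUC6 and MUC16, and the lower lines of most other members. On MUC1 213693_s_at and MUC13 222712_s_at all 5 lines read over both background marks.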
